A study of Mus musculus with 24 samples.

Results

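Solute carrier genes, whose symbols begin with Slc and a family number, were followed in the livers of mice injected with lung carcinoma cells and of mice injected with saline. They were picked from the annotation of the array by symbol alone, leaving out Slc10a1 and Slc27a5. Earlier results of these data were known when this rule was set. This gave 148 probes for 144 genes in 44 families, of 10080 probes on the array, where 8726 genes were named. Of these probes, 143 belong to carriers, and 5 bear an Slc symbol without being carriers: Slc9a3r1 and both probes of Slc9a3r2, which are scaffold proteins that bind a sodium and proton exchanger, Slc4a1ap, an adaptor protein, and Slc6a19os, an opposite-strand transcript. Slc10a1 has 1 probe and Slc27a5 has 0 probes on the table. A further probe that lists several symbols, an Slc symbol among them, names no single gene and was left out.

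Solute carriers are membrane proteins that move sugars, amino acids, ions, vitamins, nucleotides and metabolites across the plasma membrane or the membranes of organelles, by facilitated diffusion or by coupling the substrate to an ion gradient. In the liver they bring glutamine and other amino acids into hepatocytes, carry ornithine, citrate and acylcarnitines across the inner mitochondrial membrane for the urea cycle, lipid synthesis and fatty acid oxidation, and export organic cations towards bile. The families are numbered by sequence kinship, and members of a family often carry related substrates. The Slc25 family holds the mitochondrial carriers, Slc30 and Slc39 the zinc exporters and importers, and Slc35 the nucleotide-sugar carriers of the Golgi and endoplasmic reticulum.

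The mice that received tumor cells were male C57Bl/6 mice of 8 weeks given 1e+06 LL/2(LLC1) cells under the skin, suspended in 300 µl PBS (phosphate-buffered saline), and were killed 18, 72 or 192 h later. These cells are a Lewis lung carcinoma line that arose in the same mouse strain. The control mice had the same sex, strain and age and received PBS alone, with livers taken at the same times. RNA of a tumor-cell liver and of a PBS liver was labelled with Cy3 and Cy5 and hybridised together on oligonucleotide arrays printed in house, and hybridised again with the dyes exchanged. There were 4 such biological pairs at each of the 3 times, 12 pairs on 24 arrays. Whether a liver sample is 1 animal, and whether the injected cells formed a tumor by a given time, is not stated in the labels, and tumor refers below to the injection. P-values therefore measure the spread between pairs as labelled.

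Unless a value is said to come from the scans or from 1 dye orientation, ratios are the authors' deposited log2 ratios, tumor over PBS, averaged over the dye-swapped arrays of a pair. A ratio of 0 means equal signal, and one of -1 means that the tumor liver had 0.5 times the PBS signal. Their direction was worked out from the scans by taking Cy3 for channel A. No file names the dye of that channel, and with Cy5 in its place every sign turns. The deposited ratios carry neither channel's own level. In liver homogenate, fewer cells of a type and less RNA per cell cannot be told apart.

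Coverage limited what could be said of the family. Of the 148 probes, 133 had a ratio in both dye orientations of at least 1 pair, 63 in at least 6 pairs and 7 in all 12 pairs. The 15 probes with none were those of Slc1a3, Slc4a10, Slc5a4b, Slc6a2, Slc6a4, Slc10a6, Slc16a1, Slc16a14, Slc18a3, Slc22a4, Slc22a6, Slc22a16, Slc28a2, Slc44a4 and Slc46a2. They include the carriers of noradrenaline (Slc6a2), serotonin (Slc6a4) and acetylcholine (Slc18a3) known from neurons, the kidney anion carrier Slc22a6, and Slc16a1, the lactate carrier MCT1. The deposited ratios are a subset of the spots measured in the scans, so that a missing ratio is no measure of absence. In the scans, 117 of the 148 probes were above 1.5 times the background on at least 12 of the 24 arrays, against 7460 of all 10080 probes.

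**Figure D1:**
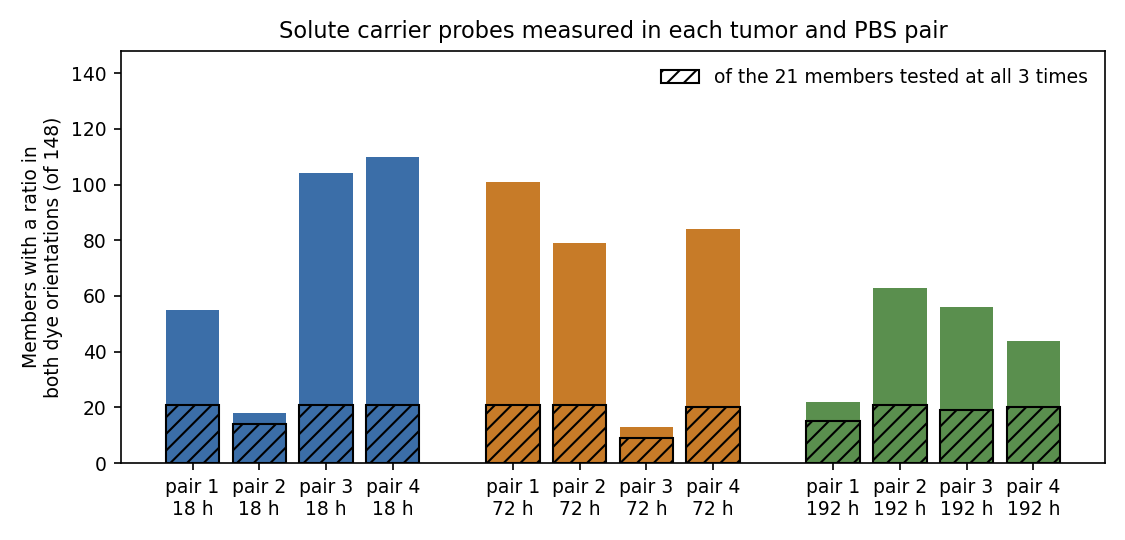
Number of solute carrier probes, of 148, with a deposited ratio in both dye orientations of each pair, by time. Hatching marks the 21 probes tested at all 3 times. Coverage ran from 13 probes in pair 3 at 72 h to 110 in pair 4 at 18 h, and 3 pairs had fewer than 30 probes.

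The pairs differed widely in coverage. At 18 h, pairs 1 to 4 had 55, 18, 104 and 110 solute carrier probes in both orientations. At 72 h they had 101, 79, 13 and 84, and at 192 h 22, 63, 56 and 44. Pair 2 at 18 h, pair 3 at 72 h and pair 1 at 192 h were thus the sparsest, as the bar plot of probes per pair shows. A probe was tested where at least 3 of the 4 pairs held a ratio in both orientations at each time. This left 21 solute carrier probes of 1362 probes in all.

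The 21 probes cover most transport classes. The 5 mitochondrial carriers were Slc25a1 (citrate), Slc25a3 (phosphate), Slc25a15 (ornithine), Slc25a23 (ATP-Mg and phosphate) and Slc25a46, an outer-membrane member of the family. The 4 ion and pH genes were Slc4a4 (sodium bicarbonate), Slc20a2 (phosphate), Slc26a2 (sulfate) and the scaffold Slc9a3r1. The 3 metal genes were Slc11a1, a divalent metal carrier of the macrophage phagosome, and the zinc carriers Slc30a5 and Slc39a13. Pairs of genes stood for amino acids (Slc7a13 and Slc38a3), nucleotide sugars (Slc35a2 and Slc35b1) and the vitamin, nucleoside and choline class (Slc19a2, a thiamine carrier, and Slc46a3, a lysosomal carrier). Slc16a11 (monocarboxylate family), Slc33a1 (acetyl-CoA) and Slc47a1 (organic cations) were the lone members of theirs. None of the 12 probes of neurotransmitter and vesicular carriers was tested at all 3 times.

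At no time did a solute carrier pass the test. With limma on the 1362 probes and Benjamini-Hochberg adjustment at 0.05, 0 of 21 were called at 18, 72 and 192 h, for the mean of the times, and in the contrasts between times. The background was the same, with 0% of all 1362 probes called in each of these 7 comparisons. At an unadjusted p under 0.05, there were 2 of 21 at 18 h (7.12% of all probes), 2 at 72 h (5.21%) and 1 at 192 h (3.67%). All 5 had ratios below 0, where the share of all probes was 4.63% at 18 h, 3.38% at 72 h and 2.5% at 192 h. For the mean of the times there was 1 (9.4%), also below 0 (7.2%). For 72 h against 18 h there were 0 (1.69%), and there were 2 each for 192 h against 18 h (4.11%) and for 192 h against 72 h (3.52%). The smallest adjusted p of limma among the 21 was 0.626 at 18 h, 0.935 at 72 h, 0.997 at 192 h and 0.504 for the mean of the times.

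The intervals bound the differences these pairs could hold. The 95% interval of the ratio lay within 0.5 of 0 on the log2 scale, which is 1.41-fold either way, for 20 of 21 members at 18 h, 20 at 72 h and 19 at 192 h. The exceptions were Slc38a3 at each time and Slc25a3 at 192 h. The median half-width was 0.15 at each time, from 0.084 for Slc11a1 to 0.55 for Slc38a3. These intervals hold on the scale of the deposited ratios, which ran smaller than ratios computed from the scans. The slope of scan ratio on deposited ratio was 1.29 to 2.03 per array.

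**Figure D2:**
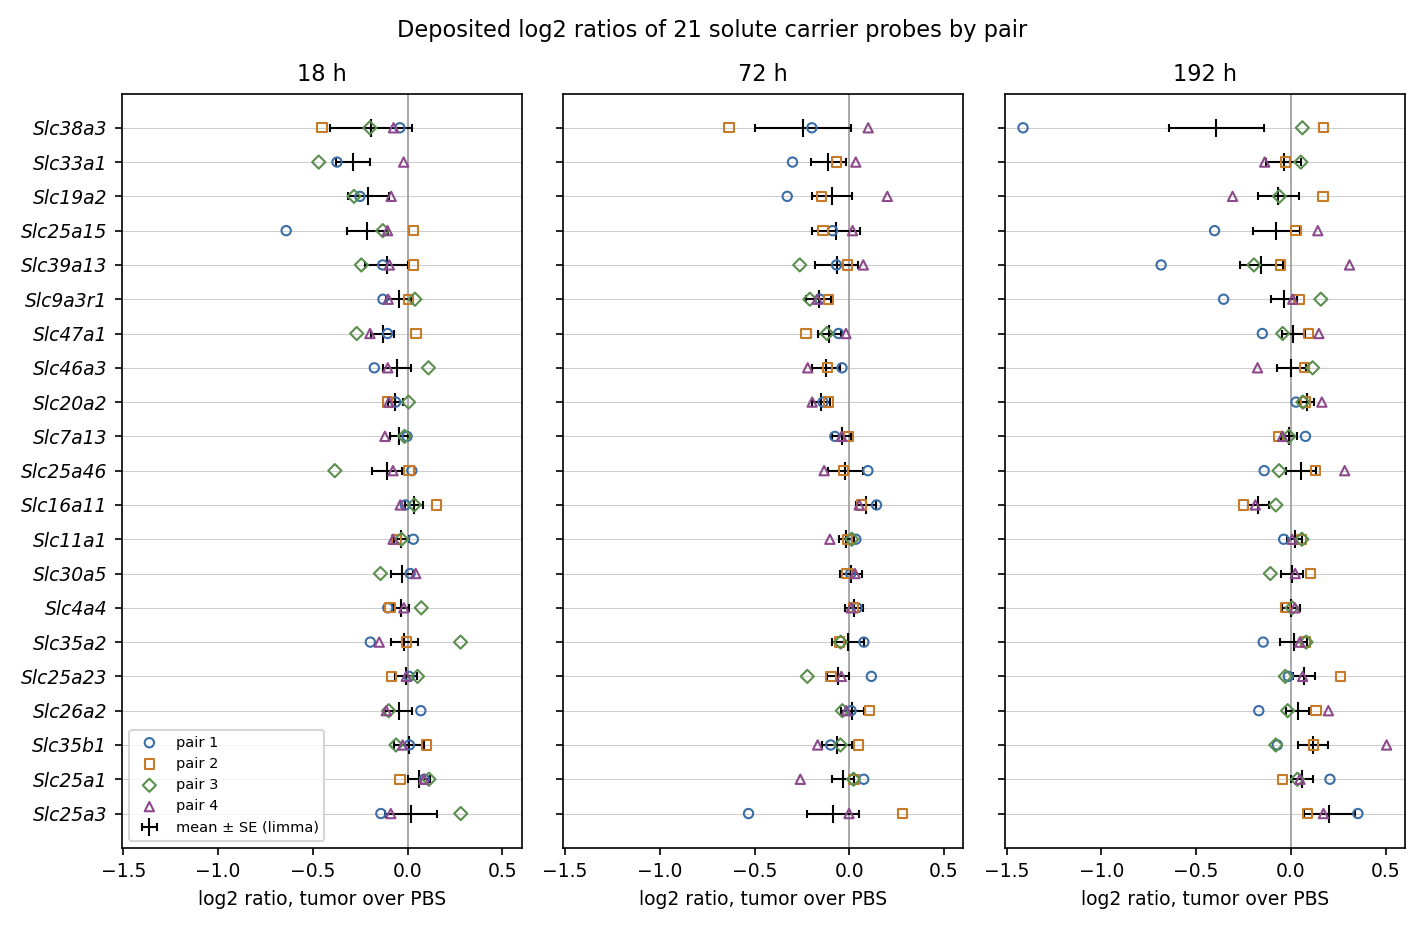
Deposited log2 ratios, tumor over PBS, of the 21 solute carrier probes tested, by time. Open symbols are the pairs, vertical ticks with bars the mean and standard error from limma, and genes are ordered by the mean of the times. Of 223 pair values, 207 lie within 0.3 of 0, and Slc38a3 in pair 1 at 192 h lies farthest out at -1.41.

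At 18 h, 17 of the 21 members had a mean ratio below 0 (57.2% of all probes did), with a median of -0.048 against -0.012 over all probes. Below 0 in every measured pair were 4 (17.4% of all probes), and 0 were above 0 in every pair (10.4%). The member with the smallest p was Slc33a1, which carries acetyl-CoA into the endoplasmic reticulum for acetylation of sugars and proteins. Its ratios were -0.37, -0.47 and -0.021 in pairs 1, 3 and 4. Pairs 1 and 3 were the low ones and pair 4 was close to 0. Pair 2 had a ratio in 1 orientation only, 0.066 with tumor RNA in Cy5, and did not enter the mean. The mean was -0.29 ± 0.092 (SE, n = 3), or 0.819 times PBS (limma adjusted p = 0.626). Both orientations gave a mean below 0, at -0.28 with tumor RNA in Cy5 and -0.18 with tumor RNA in Cy3. The Cy5 mean includes the lone array of pair 2, so it is not over the same pairs as the mean of -0.29.

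Slc19a2, which takes thiamine into cells, had ratios of -0.25, -0.28 and -0.087 in pairs 1, 3 and 4 at 18 h, all below 0, while the lone array of pair 2, which did not enter the mean, was at 0.26. Its mean was -0.21 ± 0.11 (SE, n = 3; limma adjusted p = 0.762). Slc25a15, which exchanges ornithine for citrulline across the inner mitochondrial membrane in the urea cycle, had ratios of -0.64, 0.03, -0.13 and -0.11. Its mean of -0.21 ± 0.11 (n = 4; limma adjusted p = 0.762) rested largely on pair 1, without which it was -0.069. Slc47a1, a proton-coupled exporter of organic cations on the canalicular side of hepatocytes, had ratios of -0.11, 0.044, -0.27 and -0.20. That is 3 of 4 pairs below 0, with a mean of -0.13 ± 0.061 and a limma adjusted p of 0.698. The highest mean at 18 h was that of Slc25a1, the citrate carrier, at 0.062 ± 0.058, with pairs at 0.088, -0.04, 0.11 and 0.086.

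At 72 h, 17 of 21 members were again below 0 (58.1% of all probes), with a median of -0.066 against -0.015 over all probes. In every measured pair, 5 were below 0 (16.6%) and 2 above (6.68%). Slc20a2, a sodium-coupled importer of phosphate, had the smallest p. Its ratios were -0.14, -0.11 and -0.20 in pairs 1, 2 and 4, which lie close together and below 0. Pair 3 had a ratio in 1 orientation only, -0.19 with tumor RNA in Cy3. The mean was -0.15 ± 0.046 (SE, n = 3), or 0.902 times PBS (limma adjusted p = 0.935). The orientations gave -0.17 in Cy5 and -0.14 in Cy3, with the lone array of pair 3 in the Cy3 mean.

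Slc9a3r1, the scaffold that anchors transporters below the apical membrane, was measured in all 4 pairs at 72 h, at -0.16, -0.11, -0.21 and -0.17. All lie below 0, with a mean of -0.16 ± 0.067 (limma adjusted p = 0.935). Its orientations differed, with -0.01 for tumor RNA in Cy5 and -0.31 for tumor RNA in Cy3. Slc47a1 was below 0 in all 4 pairs as well, at -0.057, -0.23, -0.12 and -0.017, with a mean of -0.11 ± 0.061. Slc46a3 was below 0 in all 3 measured pairs, at -0.038, -0.11 and -0.22. The members above 0 in every measured pair were Slc16a11, at 0.14, 0.066 and 0.052, and Slc4a4, a sodium bicarbonate cotransporter, at 0.041, 0.021 and 0.0097. Neither passed the test. The orientations of Slc4a4 differed in sign, at 0.054 for tumor RNA in Cy5 and -0.045 for tumor RNA in Cy3. In the scans with subtracted background its mean was -0.093.

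At 192 h the members split more evenly, with 9 of 21 below 0 (54.7% of all probes). Their median was 0.0054, and that of all probes -0.0079. In every measured pair, 1 was below 0 (8.15%) and 2 were above (5.51%). The one below was Slc16a11, at -0.25, -0.079 and -0.19 in pairs 2, 3 and 4. Its mean was -0.17 ± 0.055 (SE, n = 3), or 0.887 times PBS (limma adjusted p = 0.997). The orientations differed, at -0.40 for tumor RNA in Cy5 and 0.05 for tumor RNA in Cy3. Slc20a2 was above 0 in all 4 pairs, at 0.027, 0.079, 0.063 and 0.16, with a mean of 0.083 ± 0.04 (limma adjusted p = 0.997). The sign of this mean turned in the 3 ratios computed from the scans, where it was -0.084 with subtracted background. Slc25a3, the mitochondrial phosphate carrier, was at 0.35, 0.086 and 0.17 in 3 pairs, with a mean of 0.20 ± 0.14, and 0.13 without pair 1.

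Pair 1 at 192 h stood apart from the other pairs. The standard deviation over its measured members was 0.42, against 0.086 to 0.19 in the other pairs at 192 h, and over all probes it was 0.30, against 0.13 to 0.22. It held the lowest ratio of the 21 members, -1.41 for Slc38a3, the carrier that moves glutamine in and out of hepatocytes. Slc38a3 was at 0.17 and 0.061 in pairs 2 and 3, so that its mean of -0.39 ± 0.25 at 192 h came from that pair, and without it the mean was 0.12. Slc39a13, a zinc carrier, was at -0.68 in pair 1, against -0.054, -0.20 and 0.31 in the other pairs, and Slc25a15 was at -0.40 in pair 1, against 0.027 and 0.14. Without pair 1, 5 of 21 members were below 0 at 192 h (52.7% of all probes) and their median was 0.066. Without pair 2, 3 or 4 instead, 11 of 21 were below 0 in each case, against 51.4%, 50.6% and 59.7% of all probes. The members' medians were then -0.0063, -0.0045 and -0.0032, so the sign at 192 h depended on which pair was left out. In pair 1 the 2 hepatocyte markers on the array, Hnf4a and Tdo2, had a median of -0.79, and the aquaporins had -0.81. The Kupffer cell and macrophage markers had 0.37. The part of the mixture of cells in these members' ratios was not tested.

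**Figure D3:**
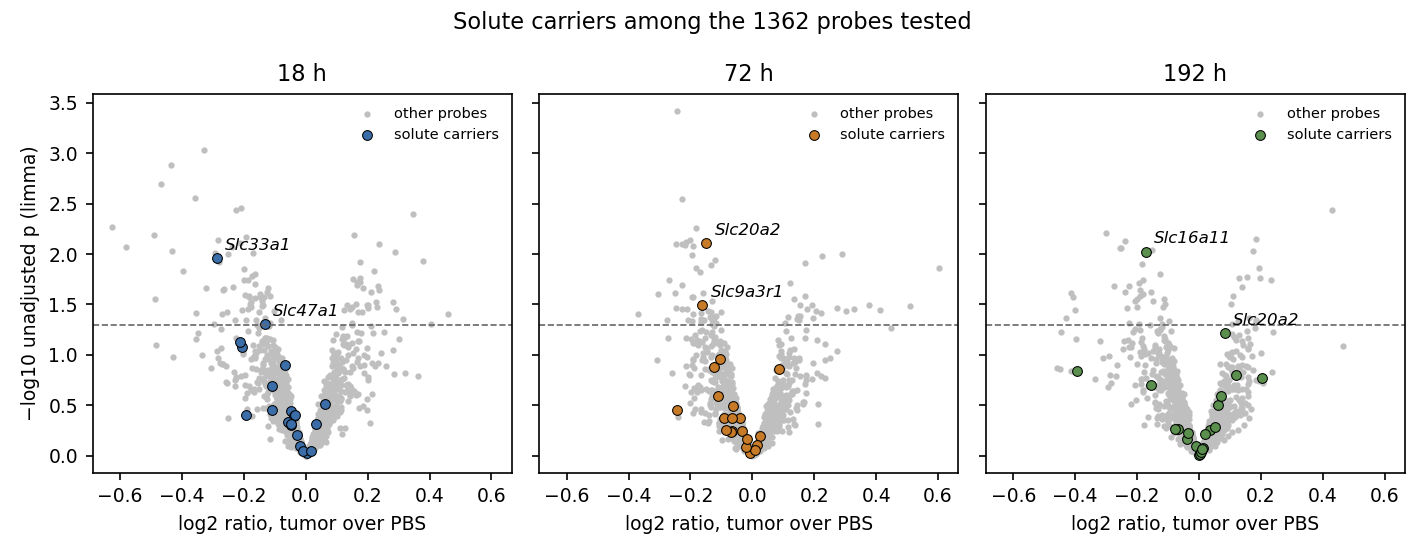
Mean log2 ratio, tumor over PBS, against −log10 of the unadjusted p from limma for the 1362 probes tested at each time. Coloured points are the 21 solute carriers, the 2 with the smallest p at each time are named, and the dashed line marks an unadjusted p of 0.05. Between 1 and 2 solute carriers lie above the line at each time, and 0 probes passed after adjustment.

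Across the times, 7 of 21 members had a mean below 0 at each of 18, 72 and 192 h (25.8% of all probes), and 0 were above 0 at each (14.1%). Without pair 1 at 192 h, 3 of 21 were below 0 at each time, against 20.2% of all probes, and these were Slc7a13, Slc19a2 and Slc33a1. The 7 were Slc7a13, an amino acid carrier known from kidney, Slc9a3r1, Slc19a2, Slc25a15, Slc33a1, Slc38a3 and Slc39a13. The sign of Slc7a13 differed between orientations at each time. It was at -0.12, -0.097 and -0.082 at 18, 72 and 192 h for tumor RNA in Cy5. For tumor RNA in Cy3 it was at 0.044, 0.052 and 0.061. The mean over the times was lowest for Slc38a3 at -0.28 ± 0.14 (limma adjusted p = 0.516) and highest for Slc25a3 at 0.045. Both ranks rested on pair 1 at 192 h, without which Slc38a3 was at -0.11 and Slc25a3 at 0.020, and Slc33a1 was lowest at -0.15 and Slc35b1 highest at 0.040. Slc33a1 had the smallest p for the mean of the times, at -0.15 ± 0.053 (limma adjusted p = 0.504). The values of Slc33a1 at 72 h were -0.30, -0.067 and 0.034, and at 192 h -0.029, 0.053 and -0.14, so that the lowest ratios were those of pairs 1 and 3 at 18 h.

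The contrasts between times were led by Slc20a2 and Slc16a11, which ran in opposite ways. Slc20a2 was 0.23 ± 0.061 higher in log2 ratio at 192 h than at 72 h (95% interval 0.098 to 0.37; limma adjusted p = 1.00). In the scans with subtracted background this difference was 0.12 ± 0.18. Its pairs did not overlap between these times, at 0.027 to 0.16 at 192 h and -0.20 to -0.11 at 72 h, and 1 of 21 members and 2.94% of all probes were separated in this direction. Slc16a11 was 0.26 ± 0.077 lower at 192 h than at 72 h (95% interval -0.43 to -0.089; limma adjusted p = 1.00). In the scans it was -0.46 ± 0.17. Its pairs did not overlap either, at -0.25 to -0.079 at 192 h and 0.052 to 0.14 at 72 h, and 1 of 21 members and 2.13% of all probes were separated in this direction. Slc33a1 was 0.25 ± 0.13 higher at 192 h than at 18 h (limma adjusted p = 1.00). The members with an unadjusted p of limma under 0.05 for 192 h against 18 h were instead Slc20a2, at 0.15, and Slc16a11, at -0.21. No contrast between times passed the test for a member.

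Among the 5 mitochondrial carriers, 3 were below 0 at 18 h (57.2% of all probes), 5 at 72 h (58.1%) and 1 at 192 h (54.7%). Their medians were -0.008, -0.061 and 0.061. Slc25a15 had the lowest mean over the times in the family, at -0.12, or -0.066 without pair 1 at 192 h, and Slc25a3 the highest. The count at 72 h was 4 of 5 in ratios computed from the scans with subtracted background or with normexp, and that at 192 h was 2 of 5 in both. With scans centred on the median and no loess, 3 of 5 were below 0 at 192 h. Pairs spread widely for some of these carriers. Slc25a3 was at -0.53, 0.28 and -0.0015 at 72 h, and Slc25a46 at 0.022, 0.0068, -0.38 and -0.078 at 18 h.

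More members could be tested where the rule asked for at least 3 pairs at a single time, whatever the other times held. This gave 49 members at 18 h, 49 at 72 h and 31 at 192 h, and 66 members at 1 time or more. Again 0 were called (0% of 2862, 3390 and 2030 probes). An unadjusted p under 0.05 was found for 4 at 18 h (7.58% of all probes), 2 at 72 h (5.07%) and 1 at 192 h (3%). Below 0 were 36 of 49 at 18 h (53.6% of all probes), 35 of 49 at 72 h (57.6%) and 15 of 31 at 192 h (52.6%). The values of members named from here on to the end of the next paragraph were picked after they were seen, as members with the same sign in all 3 pairs or with known roles in the liver.

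At 18 h, Slc39a4, a zinc importer known from the gut, was above 0 in all 3 measured pairs, at 0.32, 0.23 and 0.084, with a mean of 0.21 ± 0.063 (limma adjusted p = 0.586). The zinc carrier Slc30a6 was below 0 in 3 of 3 pairs, at -0.06, -0.091 and -0.054. Of the 49 members at 18 h, 1 was above 0 in every measured pair (13.5% of all probes) and 10 were below 0 in every measured pair (18%). Of the mitochondrial carriers, 7 of 9 were below 0 at 18 h (53.6% of all probes), 7 of 7 at 72 h (57.6%) and 1 of 5 at 192 h (52.6%). They include Slc25a20, which brings acylcarnitines into mitochondria for fatty acid oxidation, at -0.26, -0.068 and -0.031 at 18 h and -0.18, -0.08 and 0.028 at 72 h. They also include the mitochondrial iron importer Slc25a37, at -0.13, -0.15 and -0.018 at 18 h. None of these passed the test.

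Among carriers with known roles in the liver, Slc38a4, which takes up amino acids in hepatocytes, was at 0.033, 0.074 and -0.016 at 18 h and at -0.023, 0.049 and 0.0096 at 72 h. Slc22a5, the plasma membrane carnitine carrier, was at -0.075, -0.29 and 0.072 at 18 h, with values on both sides of 0 and a mean of -0.099 ± 0.078. Of 9 members chosen for known roles in the liver, 4 were among the 21 probes tested at all times (Slc25a1, Slc25a15, Slc33a1 and Slc38a3), and Slc16a1 had no ratio in any pair.

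**Figure D4:**
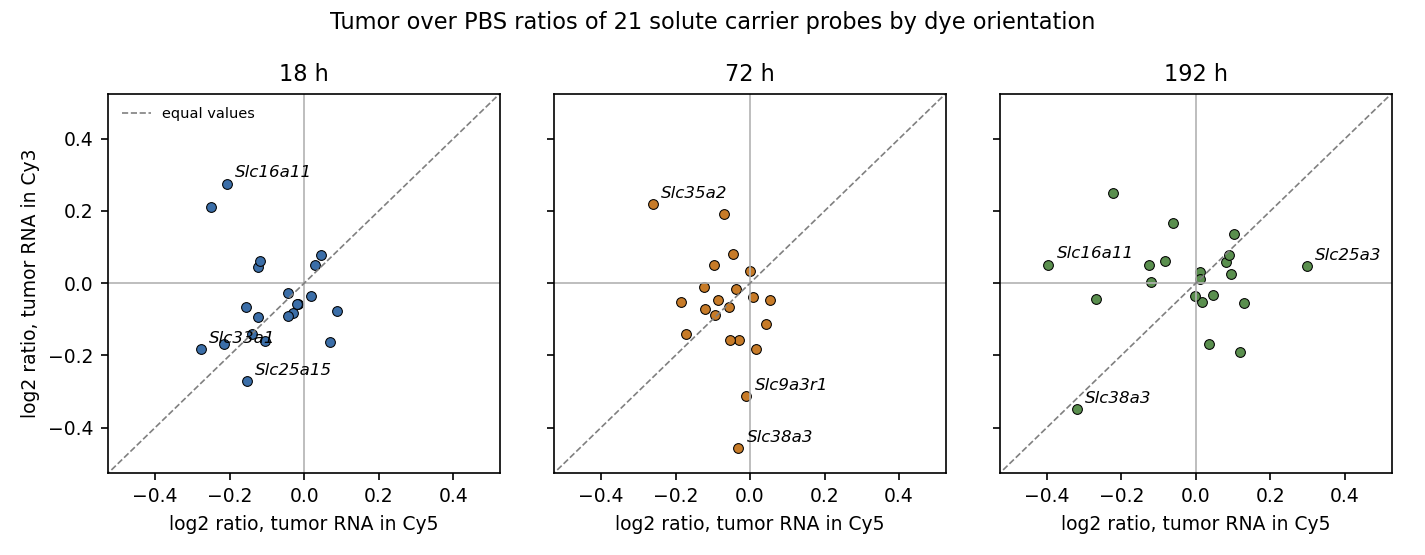
Mean log2 ratio, tumor over PBS, of the 21 members at each time on arrays with tumor RNA in Cy5 (horizontal) and in Cy3 (vertical). Each mean is over all arrays of that orientation with a ratio, also where the dye-swapped array has none. Points to the upper left and lower right of 0 have opposite signs in the 2 orientations. These are 7 members at 18 h, 8 at 72 h and 11 at 192 h.

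The mean ratios of the 2 orientations had opposite signs in 7 of 21 members at 18 h, 8 at 72 h and 11 at 192 h, as the plot by dye orientation shows. Each orientation's mean took all its arrays with a ratio, so the 2 means can rest on different pairs. The median size of the difference between orientations was 0.053 at 18 h, 0.11 at 72 h and 0.12 at 192 h. The median size of the members' mean ratios was 0.048, 0.066 and 0.052 at these times. Slc16a11 and Slc35a2 were each lower with tumor RNA in Cy5 at every time. Slc16a11 was at -0.21, -0.07 and -0.40 at 18, 72 and 192 h with tumor RNA in Cy5, and at 0.28, 0.19 and 0.05 with tumor RNA in Cy3. Slc35a2 was at -0.25, -0.26 and -0.22 with tumor RNA in Cy5, and at 0.21, 0.22 and 0.25 with tumor RNA in Cy3. In these means over unmatched arrays, Slc20a2 and Slc33a1 differed by at most 0.18 between orientations. For Slc33a1 at 18 h the Cy5 mean holds the lone array of pair 2, which makes the difference there smaller. Over all probes with both orientations, the ratios of the dye-swapped arrays of a pair correlated between -0.42 and 0.63 across probes, which are not independent replicates. The correlation was below 0 in 9 of 12 pairs. It was highest in pair 1 at 192 h, the pair that stood apart, and the next highest was 0.25.

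**Figure D5:**
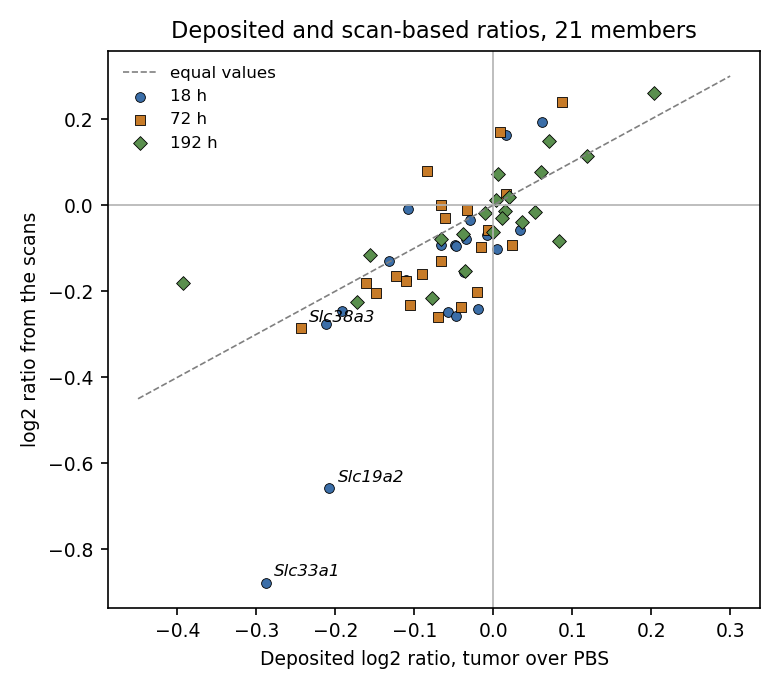
Mean log2 ratio, tumor over PBS, of the 21 members in the deposited ratios (horizontal) and in ratios computed from the scans with subtracted background and loess (vertical), by time. The signs are the same for 19 members at 18 h, 19 at 72 h and 16 at 192 h, and Slc33a1 and Slc19a2 at 18 h lie far below the line of equal values.

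Ratios computed from the scans gave the same sign as the deposited ratios in 19 of 21 members at 18 h, 19 at 72 h and 16 at 192 h. They were larger, with a median size of 0.16 at 18 h against 0.048 in the deposited ratios. Slc33a1 at 18 h was -0.88 ± 0.21 (limma adjusted p = 0.561) and Slc19a2 -0.66 ± 0.22 (limma adjusted p = 0.643), against -0.29 and -0.21 in the deposited ratios. With the scans, 14 of the 21 members were below 0 at 192 h, against 9 in the deposited ratios, so that the split at that time turned with the source of the ratios (54.8% of the 2062 probes tested in the scans). At 18 h 19 of 21 were below 0 in the scans (51% of probes) and at 72 h 17 of 21 (61%), and 0% of those probes were called at each time.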

How the data were processed

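The log2 ratios were deposited by the authors as a table of 24 arrays, with method, scale and direction not given in the sources used here. Set against the scans, the deposited log2 ratios correlated at 0.506 to 0.842 per array when turned to tumor over PBS with channel A taken as Cy3, and their array medians lay between -0.033 and 0.0095. Per the file headers, each of the 3 scan tables of an array gives spot intensity corrected for background, the background intensity, and a saturation factor that is a fraction from 0 to 1. An array held 977 to 8894 deposited ratios, and the number of arrays limits the precision. No value column was left without a sample.

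Dye-swapped arrays share RNA and were averaged to 1 value per pair. limma 3.58.1 (R 4.3.3, with version 1.17.8 of data.table and figures by matplotlib 3.10.9) was fitted with lmFit and eBayes, with a coefficient per time over all 12 pairs, for 1362 probes with both orientations of at least 3 pairs at each time. Tests were two-sided, with Benjamini-Hochberg adjustment over the 1362 probes and a threshold of 0.05. Intervals are 95%. The fit was tested on simulated data. The deposited table was used because membership and ratios were defined on it. Scan ratios (loess with span 0.3 on subtracted intensities, normexp with offset 50, or median centring) were alternatives. Symbols came from the platform annotation, where 9066 probes had 1 symbol, 12 several and 1002 none listed. All 148 members matched by Entrez identifier to RefSeq gene names, of which 0 needed updating. No probe coordinates are given, since no build is named.

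The members, gene lists and tests were chosen with earlier results of these data known. Named genes were drawn from the 5 tested members with the smallest p in each direction at each time and for the mean of the times. Also drawn on were the 3 in each direction for each contrast and members with 1 sign in all measured pairs of all times. The extremes of families with at least 3 tested members and carriers with known roles in the liver completed the list. Not every gene of this list is given with its value. Others named were chosen after their values were seen.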

Additional observations from a re-analysis of the deposited data

Results flagged for a closer look

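In 37 sets of 4 pairs of a member at a time, the lowest or highest pair was compared with the others, and 2 stood apart by Dixon's test at the 95% level. Chance alone marks about 1 in 20 such sets. Slc35a2, which carries UDP-galactose into the Golgi, was at -0.146 in pair 1 at 192 h, against 0.047 to 0.080 in the other 3 pairs. Its orientations differed at that time, with means of -0.22 for tumor RNA in Cy5 and 0.25 for tumor RNA in Cy3. Slc25a1, the mitochondrial citrate carrier, was at -0.258 in pair 4 at 72 h, against 0.022 to 0.076 in the other 3 pairs.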

How the results depend on the processing

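No solute carrier was called in any of the 7 comparisons under any of the 29 alternatives, and the smallest adjusted p of limma was 0.157, for the mean of the times. Of all 1362 probes, 1 was called for the mean of the times with the replicate number as a block. The same count was found with replicates 1 and 2 set against 3 and 4 as a covariate, and without pair 4 at 72 h. No other alternative or comparison called a probe. The number with an unadjusted p under 0.05 reached at most 4 of 28 members at 18 h (7.03% of all probes), 7 of 28 at 72 h (8.78%) and 13 of 28 for the mean of the times (20.3%), each in scans centred on the median. It reached 4 of 51 at 192 h with at least 2 pairs at each time (3.35%), and, without the 3 sparsest pairs, 8 of 49 for 192 h against 18 h (7.49%) and 6 of 49 for 192 h against 72 h (5.36%). For 72 h against 18 h it was at most 1. This was 1 of 28 in scans with normexp (3.34%) or subtracted background and loess (3.44%), and 1 of 21 without pair 4 at 18 h (2.72%). The median ratio of the tested members moved most with ratios from the scans, which tested 28 members. Centred on the median without loess, it was -0.232 at 18 h, -0.390 at 72 h, -0.134 at 192 h and -0.254 for the mean of the times. In that setting the median of all probes was itself at -0.12, -0.27, -0.031 and -0.14. With normexp the members' median was -0.227 at 18 h, -0.210 at 72 h and -0.136 for the mean, and with subtracted background and loess -0.0986, -0.113 and -0.0901. At 192 h both turned the sign of the median, at -0.034 with normexp and -0.024 with subtracted background. In the deposited ratios it was also below 0 at 192 h with replicates 1 and 2 alone, at -0.018. The same held without pair 2, 3 or 4 at 192 h (-0.0063, -0.0045 and -0.0032). With at least 2 pairs at each time it was -5.7e-05. At 72 h it was -0.0446 with at least 2 pairs at each time, -0.0246 with replicates 1 and 2 alone, and, in 2 alternatives chosen after seeing the data, -0.0364 with at least 3 pairs at that time and -0.0408 without the 3 sparsest pairs. The cause was not tested. Of 57 ratios of named members, 28 kept their sign under every alternative that gave a value, and the other 29 turned in 104 of their 672 values, 22 of them with median centring, none being called.

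The correlation of deviations between pairs of the same number at different times ran from -0.32 to 0.49, with a median of 0.053. Between pairs of different numbers it ran from -0.55 to 0.51, with a median of 0.024. The ranges overlap, so these values cannot tell whether replicate numbers pair the samples. With the replicate number as a block, 0 members were called, against 1 of all 1362 probes, for the mean of the times. The members' median was then -0.048, -0.061 and 0.012 at 18, 72 and 192 h. Missing ratios left 82 of 148 members untested at any time. Of these, 51 were above 1.5 times background on at least 12 arrays, and why their ratios are missing was not tested.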

Other observations

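Other transporter groups were also measured, with at least 3 pairs at the time concerned, and 0 of their members were called by limma (0% of all probes). Of all probes so tested, 53.6% were below 0 at 18 h, 57.6% at 72 h and 52.6% at 192 h. Of the ABC transporters, ATP-driven exporters, 6 of 11 were below 0 at 18 h, 8 of 11 at 72 h and 4 of 6 at 192 h, with medians of -0.0056, -0.071 and -0.041. Of the aquaporins, the water channels, 3 of 4 were below 0 at 18 h, 3 of 3 at 72 h and 3 of 4 at 192 h, with medians of -0.050, -0.17 and -0.13, and the median of pair 1 at 192 h was -0.81. Of the P-type ATPases, ion pumps and lipid flippases, 1 of 1 was below 0 at 18 h, 1 of 5 at 72 h and 0 of 2 at 192 h. The Slco family of organic anion carriers had 1 member measured, at -0.028 at 72 h and -0.006 at 192 h. Of the Kupffer cell and macrophage markers, 5 of 5 were above 0 at 18 h, 4 of 5 at 72 h and 3 of 4 at 192 h, with medians of 0.050, 0.081 and 0.025. Their median was below 0 in pair 1 at 18 h (-0.054), pair 4 at 72 h (-0.13), and pairs 2 and 3 at 192 h (-0.088 and -0.027). Neutrophil and lymphocyte markers were above 0 in 1 of 1, 4 of 4 and 1 of 1 at these times. Their lone marker was at -0.026, 0.23 and -0.12 in pairs 1, 3 and 4 at 18 h. At 192 h its pairs were at 0.68, -0.47, 0.21 and 0.21. For hepatocyte markers the count above 0 was 0 of 2, 0 of 1 and 0 of 2, and for endothelial and stellate markers 0 of 2, 1 of 1 and 1 of 1. The hepatocyte medians at 192 h were -0.79 in pair 1 and 0.020, 0.023 and -0.038 in pairs 2, 3 and 4. Kidney and gut epithelium markers were above 0 in 1 of 1 at 18 h and 2 of 2 at 192 h.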
